A study of Drosophila melanogaster with 15 samples.

Results

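Adult Drosophila melanogaster males without Dystrophin (Dys) were compared with males mutant for Dystroglycan (Dg), its binding partner. The comparison held 6 of the 15 libraries of the series, the 3 labelled Dys and the 3 labelled Dg. They were paired by the condition the flies had been kept in, and no control library entered the comparison. It covered 10350 of the 14124 listed loci, those with a gene name whose estimate was given as OK in every library. For each locus the difference was taken on log2(FPKM + 1) in each condition, as Dys minus Dg, and is given as the mean ± SD over 3 conditions. FPKM are fragments per kilobase of transcript, scaled to the mapped fragments of the library, so that levels are per length.

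The Dys males were homozygous for Df(3R)Exel6184, a chromosomal deletion that takes out Dys together with neighbouring genes. The Dg males carried Dg[O55] over Dg[O86], a pair of mutant alleles of one gene. Both sets were whole males aged 1 week, pooled at about 10 per library. Unstressed flies spent 5 days at 25°C on standard food, flies under temperature stress spent 5 days at 33°C, and flies under metabolic stress spent 4 days on yeast paste without sugar. Each genotype and condition has 1 library, so the SD and every p-value below measure the spread of a difference over 3 conditions, not over repeated pools of one condition. The mutants come from unlike stocks, and an effect of the mutation and a difference between the stocks cannot be told apart.

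In the fly, as in mammals, the dystrophin glycoprotein complex (DGC) joins the extracellular matrix to the actin cytoskeleton across the cell membrane. Dystroglycan spans the membrane, binds laminin and other matrix proteins outside the cell through its sugar chains, and holds Dystrophin by its cytoplasmic tail. Dystrophin binds actin and, through syntrophins and dystrobrevin, brings signalling proteins such as nitric oxide synthase to the membrane. Loss of either partner leads to muscle degeneration, and both act in the nervous system and the eye.

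The libraries were alike in bulk measures. Summed FPKM over the loci compared was 238001 to 282434 in the Dys libraries and 237571 to 276383 in the libraries labelled Dg. Relative depth, read from the steps between low values and set to 1 in the unstressed library labelled Dg, was 0.836 to 0.953 in the Dys libraries and 1.00 to 1.05 in the libraries labelled Dg. The absolute depth is unknown, and no counting intervals were computed. Testis genes were abundant in both mutants, with 19 marker loci summing to 7512 to 8405 FPKM in Dys and 6715 to 7679 FPKM in the libraries labelled Dg. The yolk protein gene Yp3 stood at 2.58 to 5.31 FPKM in Dys and 4.38 to 7.23 FPKM in the libraries labelled Dg. The tissue is whole flies, and in such bulk samples fewer cells of a type and less RNA per cell cannot be told apart.

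Dys transcripts were listed at 0 in all 3 Dys libraries. Of the 13 loci that name Dys, 12 name it alone, and these summed to 0 FPKM in each Dys library, against 35.1, 27.7 and 45.7 FPKM in the unstressed, temperature and metabolic libraries labelled Dg. Values below keep this order of conditions. The groups did not overlap, and 3 of the 12 loci were called lower in Dys. A locus was called when its adjusted p (limma, with condition and genotype as terms, Benjamini-Hochberg over 10350 loci) was under 0.05 and its mean difference was at least 1 in size, that is, 2-fold. The remaining locus is shared with CG6255, a succinyl-CoA ligase gene by the RefSeq name table, and held 81.6, 88.3 and 89.2 FPKM in Dys, against 78.9, 75.9 and 67.6 FPKM in the libraries labelled Dg. Reads of CG6255 and Dys cannot be told apart there, and the difference of 0.22 ± 0.17 did not pass the test (adjusted p = 0.297).

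The tables give 21 loci the same position as Dys, on chromosome 3R from 15238066 to 15468448 in the coordinates as listed, whose genome build is not stated. Of these loci 9 were called, all lower in Dys, which is 42.9% beside 3.25% of all loci. CG15025 was listed at 0 in each Dys library, against 106, 121 and 84.1 FPKM in the libraries labelled Dg. CG17752 was likewise listed at 0 in Dys, against 45.6, 18.3 and 17.0 FPKM. The loci of CG6231, CG7342 and Cpr92A, a gene for a cuticle protein, were also at 0 in Dys and above 1 FPKM in every library labelled Dg. These genes share one pattern with Dys itself, listed at 0 in the Dys libraries and read in the libraries labelled Dg under every condition.

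Some other loci at that position were read in every Dys library. CG16718, known as subdued, encodes a calcium-activated chloride channel and had 1.38, 2.40 and 1.49 FPKM in Dys, against 13.8, 11.3 and 14.1 FPKM in the libraries labelled Dg. Its difference of -2.37 ± 0.44 passed the test (adjusted p = 0.0182). CG31221 had 12.4, 8.51 and 7.56 FPKM in Dys, against 17.3, 18.3 and 14.5 FPKM, and CG3517 had 264.5, 275.8 and 305.5 FPKM in Dys, against 256.4, 209.1 and 219.4 FPKM. CG31221 and CG3517 were not called.

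**Figure D1:**
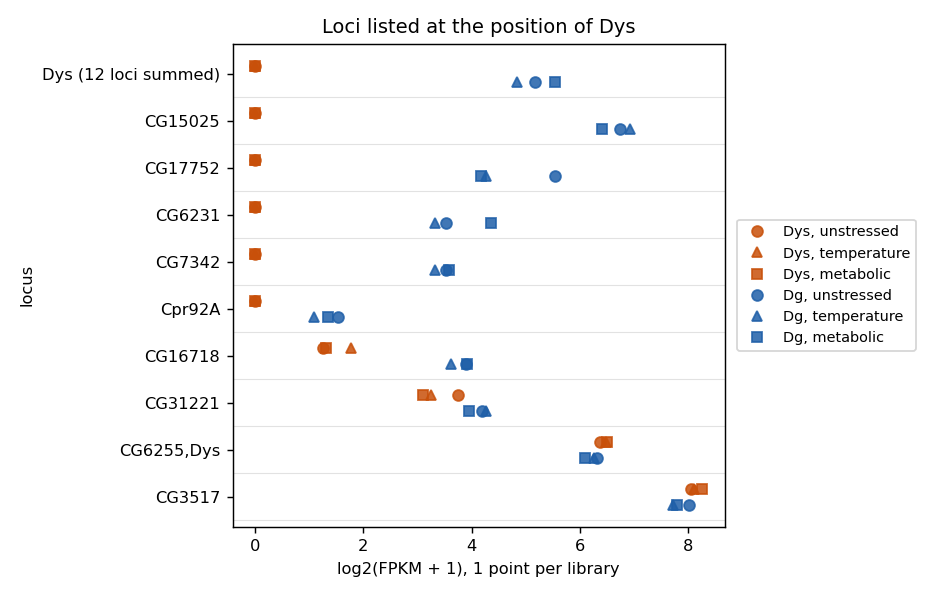
Level of loci listed at the position of Dys, as log2(FPKM + 1), with 1 point per library (circles unstressed, triangles temperature, squares metabolic; Dys in orange above Dg in blue in each row). Dys and 5 other genes are at 0 in all 3 Dys libraries, CG16718 is lower without being absent, and the 3 lowest rows lie within about 1 unit of each other in both mutants.

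The Dg gene did not show the reverse. Its single locus, on chromosome 2R from 11968702 to 11986164 as listed, had 12.3, 10.9 and 10.3 FPKM in Dys, against 13.6, 19.3 and 12.5 FPKM in the libraries labelled Dg. Every library that carries the Dg alleles thus read above every Dys library, as held for 13.3% of all loci. The margin was small, with 12.3 FPKM in the highest Dys library and 12.5 FPKM in the lowest of those labelled Dg. The difference of -0.38 ± 0.34 did not pass the test (adjusted p = 0.222). The transcript level of Dg therefore does not check the Dg label.

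Of 22 loci on the DGC list, 3 were called and all 3 are Dys loci. Dyb, which encodes dystrobrevin, had 14.4, 11.3 and 19.2 FPKM in Dys, against 14.8, 13.7 and 21.3 FPKM in the libraries labelled Dg. Syn1, a syntrophin gene, had 7.01, 5.32 and 5.86 FPKM in Dys, against 6.13, 7.15 and 6.28 FPKM. Syn2, the second syntrophin gene, had 4.25, 8.77 and 3.51 FPKM in Dys, against 2.81, 2.61 and 2.52 FPKM. Syn2 was thus higher in every Dys library than in any library labelled Dg, as were 13.2% of all loci. The gap was widest under temperature stress, but the Syn2 difference of 0.75 ± 0.59 did not pass the test (adjusted p = 0.16). The sarcoglycan locus Scgalpha differed by 0.07 ± 0.28, and the locus that joins Nos, nitric oxide synthase, with CG6700 differed by -0.02 ± 0.30.

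Across the genome most loci were close between the partner mutants. In all 3 conditions 5498 loci (53.1%) differed by less than 0.5, and the median size of the mean difference was 0.226. The test called 336 loci (3.25%), 193 higher in Dys (1.86%) and 143 lower in Dys (1.38%). All 336 had one sign in the 3 conditions, and at 310 of them the 3 Dys values did not overlap the 3 Dg values, which held for 26.5% of all loci. Both traits are partly built into the call, which needs a large mean difference with a small spread over the same 3 conditions. Without a test, 579 loci (5.59%) differed by at least 1 on average, 328 higher in Dys (3.17%) and 251 lower (2.43%), and 559 of them (5.40%) had one sign in the 3 conditions. The call depended on having 3 pairs: with the unstressed or the temperature pair left out limma called 0 loci (1688 and 2520 loci at an unadjusted p under 0.05), and without the metabolic pair it called 55. With the spread taken from all 5 genotypes, the same 3 omissions gave 263, 469 and 418 calls.

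**Figure D2:**
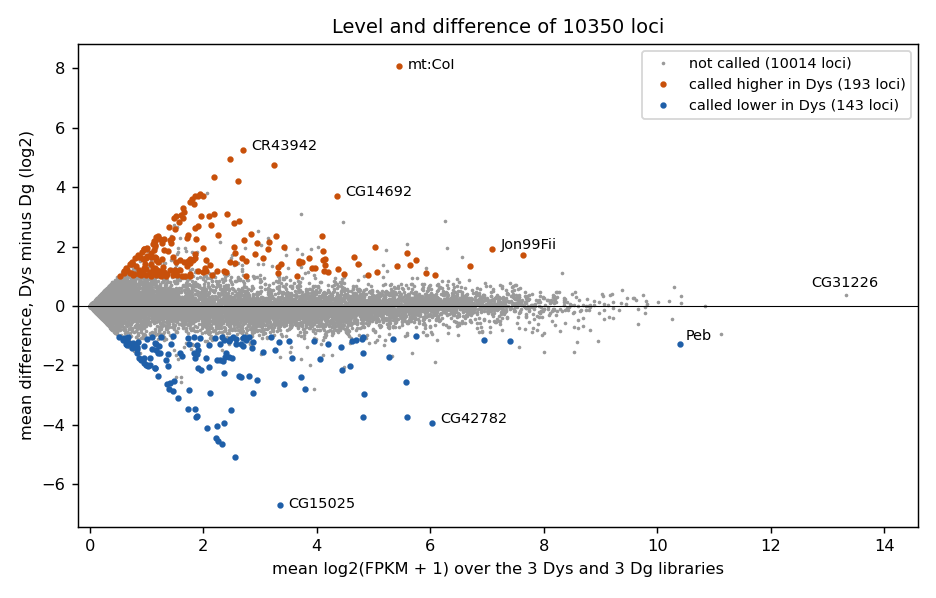
Mean log2(FPKM + 1) over the 6 libraries (horizontal axis) and mean difference, Dys minus Dg (vertical axis), for 10350 loci, with 193 called higher in Dys in orange and 143 called lower in blue. The straight edges at low levels are loci at or near 0 in one mutant, mt:CoI stands alone at 8.08, and CG15025 is the lowest.

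The locus furthest above in Dys was mt:CoI, named for a gene that encodes a subunit of cytochrome c oxidase in the mitochondrial genome. It had 642, 755 and 774 FPKM in Dys, against 1.496, 1.519 and 2.00 FPKM in the libraries labelled Dg, a difference of 8.08 ± 0.13 (adjusted p = 0.000805). The locus is listed from 6 to 6300 on the mitochondrial genome, and how reads were assigned to it cannot be seen from FPKM. Whether the difference is one of transcript level or of read assignment was not tested. No other locus of the mitochondrial genome was among those compared. The level was of the same order in the libraries labelled Nos (1059, 1135 and 831 FPKM), while those labelled Syn1 (1.17, 2.02 and 1.74 FPKM) and the control (1.47, 1.33 and 2.38 FPKM) were near the libraries labelled Dg.

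Loci of Snap25, mp and Prosap were among the 12 called loci highest in Dys. Snap25, a SNARE protein of synaptic vesicle release, has 5 loci at one position, and the second of them had 28.9, 17.3 and 52.8 FPKM in Dys while it was listed at 0 in the libraries labelled Dg. The locus mp, which the RefSeq accession ties to Multiplexin, a collagen of the type XV and XVIII class, had 26.0, 22.4 and 27.8 FPKM in Dys, against 0.307, 0.734 and 0.306 FPKM in the libraries labelled Dg. It was called at 4.19 ± 0.38 (adjusted p = 0.00612). A second mp locus, at another position, had 9.84, 5.33 and 8.63 FPKM in Dys, against 8.95, 9.85 and 9.92 FPKM, and was not called. Prosap, the fly Shank scaffold of postsynaptic sites, had 8.20, 22.9 and 12.4 FPKM at its first locus in Dys, against 0.081, 0.0865 and 0.169 FPKM, and it was called at 3.69 ± 0.70 (adjusted p = 0.0162). The 5 Prosap loci of that position summed to 13.4, 26.0 and 17.0 FPKM in Dys, against 0.649, 0.900 and 0.726 FPKM, and the sum was called at 3.45 ± 0.35 (adjusted p = 0.0045). A Prosap locus elsewhere had 8.07, 3.05 and 5.96 FPKM in Dys, against 8.003, 10.2 and 7.23 FPKM, and was not called. Another Prosap locus outside that position went the other way and was called lower in Dys (-1.05 ± 0.29, adjusted p = 0.043). It had 0.2025, 0 and 0.13 FPKM in Dys, against 1.51, 1.53 and 0.898 FPKM.

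Mkp3, a phosphatase of the ERK type of MAP kinase, had 11.8, 11.01 and 10.3 FPKM at its first locus in Dys and was listed at 0 in the 3 libraries labelled Dg. Its 4 loci summed to 16.5, 15.5 and 17.5 FPKM in Dys, against 5.85, 5.63 and 9.35 FPKM, and the sum was called at 1.17 ± 0.29 (adjusted p = 0.032). The neuropeptide gene sNPF, whose product acts on feeding and insulin release, had 8.30, 6.08 and 6.26 FPKM in Dys at the locus that lists it alone, which was listed at 0 in the libraries labelled Dg. A second locus at that position, shared with CG43861, had 22.8, 14.0 and 16.2 FPKM in Dys, against 13.05, 14.59 and 10.5 FPKM, and was not called (0.43 ± 0.43, adjusted p = 0.241). The difference at sNPF was thus in 1 of its 2 loci, and sNPF reads were not shown to be absent from the libraries labelled Dg.

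Noncoding RNAs made up 4 of the 12 highest called loci. CR43942 had 37.2, 47.3 and 33.4 FPKM in Dys, against 0.0807, 0.077 and 0 FPKM in the libraries labelled Dg. CR43263 had 42.9, 61.5 and 42.8 FPKM in Dys, against 0.915, 1.03 and 0.608 FPKM. CR40465 and CR43839 had 10.8 to 21.5 FPKM in the Dys libraries and at most 0.0476 FPKM in those labelled Dg. The 4 loci had mean differences from 3.69 to 5.24. In all, 30 of the 336 called loci list a CR name, beside 303 of the 10350 loci compared, so that such loci were a larger share of the called loci. CG42720 and CG31637 complete the 12 with CG14692, which had 70.9, 84.6 and 65.0 FPKM in Dys, against 4.97, 3.62 and 5.61 FPKM.

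Among the loci lowest in Dys was ttv, which encodes an exostosin that builds heparan sulphate chains of the matrix. Its first locus was listed at 0 in the Dys libraries, against 21.8, 31.3 and 16.0 FPKM in the libraries labelled Dg. The 3 ttv loci of that position summed to 1.501, 3.39 and 2.05 FPKM in Dys, against 23.5, 36.1 and 17.9 FPKM, and the sum was called at -2.998 ± 0.34 (adjusted p = 0.0058). A further ttv locus at another position did not differ by as much, with 7.14, 4.77 and 5.60 FPKM in Dys, against 8.90, 6.15 and 7.48 FPKM.

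CG31619, which the RefSeq accession names nolo, encodes a secreted ADAMTS-like matrix protein. It had 19.3, 14.4 and 6.30 FPKM in Dys, against 204, 200.7 and 132 FPKM in the libraries labelled Dg, and was called at -3.75 ± 0.42 (adjusted p = 0.00787). CG42782 had 17.2, 9.41 and 23.7 FPKM in Dys, against 223, 442 and 171 FPKM, and the locus that lists CG9016 alone had 7.06, 4.90 and 8.75 FPKM in Dys, against 107, 102 and 98.7 FPKM. All 3 loci were abundant in the libraries labelled Dg, and at none did a Dys library reach the lowest of these. CG9016 also shares a locus with bchs at that position, which had 952, 807 and 1095 FPKM in Dys, against 909, 730.1 and 881 FPKM, and was not called (0.17 ± 0.13, adjusted p = 0.352). A second CG31619 locus had 5.87, 3.72 and 4.99 FPKM in Dys, against 5.62, 5.74 and 5.41 FPKM, while both together were called at -3.31 ± 0.26 (adjusted p = 0.0032).

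Npc2h, of the Niemann-Pick type C2 family of sterol-binding proteins, had 0.165, 0.195 and 0.136 FPKM in Dys, against 16.9, 21.9 and 16.4 FPKM in the libraries labelled Dg. CG14687 had 0, 0 and 0.0239 FPKM in Dys, against 19.2, 8.89 and 25.2 FPKM. CG14687 lies on 3R from 6617845 to 6625319 as listed, and the next position, 6625805 to 6626403, is that of CG14692, one of the loci highest in Dys. These neighbours thus differed in opposite directions in every condition.

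**Figure D3:**
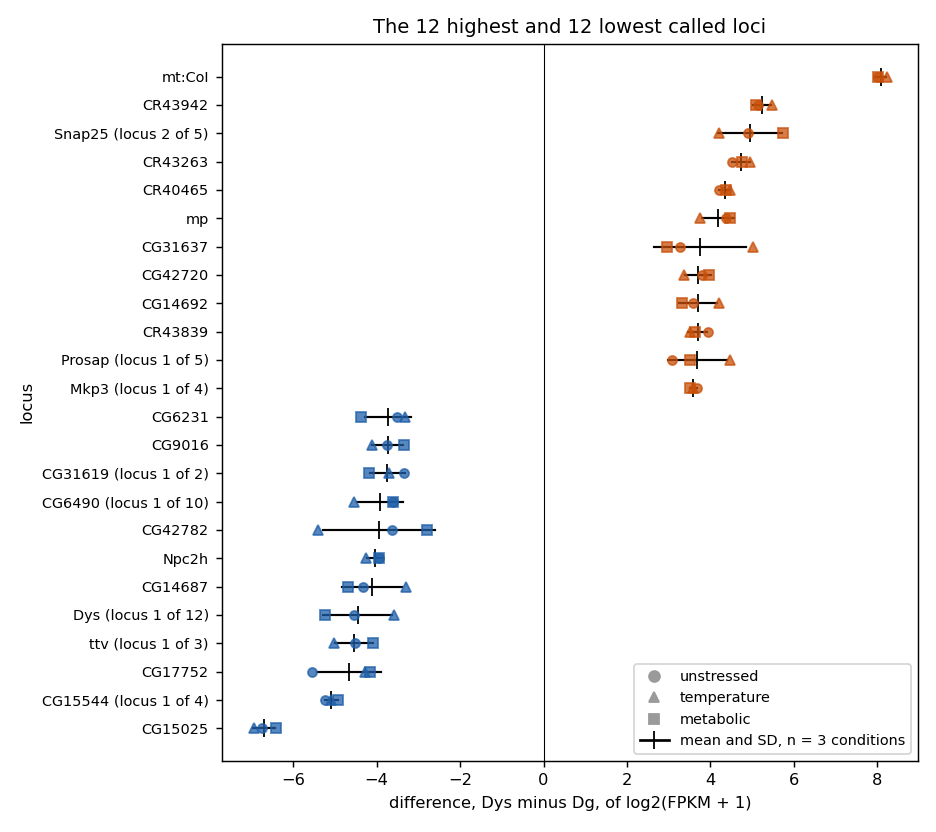
Difference, Dys minus Dg, of log2(FPKM + 1) in each condition (circles unstressed, triangles temperature, squares metabolic) with the mean and SD over 3 conditions, for the 12 called loci with the largest positive and the 12 with the largest negative mean difference. The conditions of a locus lie close together, with the widest spread at CG42782 and CG31637, and a locus at 0 in one mutant has a difference set by the level in the other and by the pseudocount of 1.

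Many called loci were one of several that carry the same name at the same position, so that a call can be about part of a gene. Of the 336 called loci, 155 were of this kind and 181 stood alone. After the FPKM of such loci were added up, 63 of the 155 belonged to a sum that was called in the same direction. At 9 names loci of one position were called in both directions, among them Pxn, a peroxidasin of the matrix, and dally, a cell surface proteoglycan. At Snap25 2 loci were called higher and 1 lower in Dys, while the 5 loci summed to 81.7, 42.8 and 96.0 FPKM in Dys, against 37.0, 51.3 and 31.5 FPKM in the libraries labelled Dg. The groups overlap, and that sum did not pass the test (0.82 ± 0.95, adjusted p = 0.252). CG15544 was also called both ways, and its sum of 3.49, 5.75 and 2.73 FPKM in Dys, against 39.7, 37.1 and 33.5 FPKM, was called lower at -2.96 ± 0.40 (adjusted p = 0.0072). Over sums by name and position the test called 244 of 8584, 139 higher in Dys and 105 lower.

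Of 34 loci for ligands of Dystroglycan and enzymes of its sugar chains, 1 was called higher and 1 lower in Dys (5.88%, beside 3.25% of all loci). The median of the list was 0.02 beside -0.02 over all loci, or -0.30 with loci that average under 1 FPKM left out. The locus called higher was 1 of several of wb, a laminin alpha chain gene, with 2.13, 1.43 and 1.04 FPKM in Dys, against 0.398, 0 and 0.198 FPKM in the libraries labelled Dg. The wb locus with most transcript, joined with CG33090, differed by -0.05 ± 0.05. Perlecan, from the gene trol, had 9.80, 9.31 and 9.33 FPKM at its most abundant locus in Dys, against 14.2, 12.96 and 16.3 FPKM, a difference of -0.56 ± 0.16 that was not called (adjusted p = 0.074). The locus that holds rt, a protein O-mannosyltransferase that acts on Dystroglycan, lists 3 more genes and differed by 0.43 ± 0.28.

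Other adhesion and signalling lists held 0 to 2 calls each, at shares from 0% to 8.33%, beside 3.25% of all loci. In the Hippo pathway 1 of 19 loci was called, a locus of ds, the protocadherin Dachsous that signals through Fat. It had 3.10, 4.87 and 2.75 FPKM in Dys, against 0.0639, 0.0611 and 0.0212 FPKM in the libraries labelled Dg (2.10 ± 0.32, adjusted p = 0.0155). A second ds locus held 2.52, 1.204 and 1.88 FPKM in Dys, against 2.13, 1.63 and 2.47 FPKM, and yki, the transcriptional coactivator that the pathway controls, differed by 0.05 ± 0.17. A further ds locus held 0.461, 0.567 and 0.612 FPKM in Dys, against 0.180, 0.0688 and 0.132 FPKM, and was not called (0.46 ± 0.13, adjusted p = 0.0915). At 2 of the 3 ds loci the Dys values thus lay above all Dg values, as at 13.2% of all loci. At the other ds locus the groups overlapped, and the pathway median was 0.05.

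In integrin adhesion 1 of 18 loci was called, the second locus of rhea, which encodes talin, listed at 0 in Dys, against 1.52, 1.95 and 0.864 FPKM in the libraries labelled Dg. Both rhea loci together had 14.8, 14.0 and 14.4 FPKM in Dys, against 20.6, 18.2 and 23.7 FPKM, a difference of -0.50 ± 0.16 that did not pass the test (adjusted p = 0.0884). In the membrane cytoskeleton 1 of 25 loci was called higher, a minor locus of shot, a spectraplakin that links actin and microtubules, with 0.757 to 1.44 FPKM in Dys and 0 to 0.0315 FPKM in the libraries labelled Dg. Of those 25 loci, 20 had a negative mean difference, with a median of -0.22. In nitric oxide signalling and the histone deacetylases 0 of 22 loci were called by limma, with 4 at an unadjusted p under 0.05, as held for 27.1% of all loci.

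In insulin signalling 2 of 24 loci were called higher in Dys. These were the sNPF locus above and the second locus of foxo, the transcription factor that insulin keeps out of the nucleus, which had 14.999, 4.95 and 15.4 FPKM in Dys, against 1.41, 1.35 and 3.42 FPKM in the libraries labelled Dg (1.99 ± 0.70, adjusted p = 0.0456). The first foxo locus went the other way, with 14.7, 8.82 and 25.2 FPKM in Dys, against 20.1, 18.6 and 33.5 FPKM. Both together differed by 0.02 ± 0.49, and the groups overlapped.

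Immune genes and digestive enzymes held 4 calls, all higher in Dys. All 11 loci of antimicrobial peptides had a positive mean difference, and 2 of them were called (18.2%, beside 1.86% of all loci called higher in Dys). In single pairs 1, 2 and 3 of the 11 loci were lower in Dys, in the order of conditions above. The median of the list was 0.82, and it was 0.41 without the unstressed pair. The list summed to 345.3, 255.2 and 749.7 FPKM in Dys, against 182.2, 327.7 and 276.1 FPKM in the libraries labelled Dg. The sum was thus lower in Dys under temperature stress. AttD, an attacin gene, had 11.7, 8.94 and 17.6 FPKM in Dys, against 0.211, 1.41 and 0.28 FPKM in the libraries labelled Dg (3.10 ± 0.94, adjusted p = 0.0342). CecC, a cecropin gene, had 3.37, 4.22 and 4.602 FPKM in Dys, against 0.107, 0.306 and 0.106 FPKM (2.11 ± 0.20, adjusted p = 0.00944). Neither gene overlapped between the mutants. Dro, for the peptide drosocin, had 8.999, 25.1 and 226 FPKM in Dys, against 4.88, 3.12 and 2.77 FPKM, highest in the metabolic Dys library, and the difference of 3.11 ± 2.60 did not pass the test (adjusted p = 0.158). DptB, for a diptericin, had 4.46, 19.4 and 58.0 FPKM in Dys, against 0.533, 5.00 and 2.88 FPKM, and was not called either (2.51 ± 1.23, adjusted p = 0.072). The locus shared by CecA1 and CecA2 had 120.5, 142.0 and 275.5 FPKM in Dys, against 103.2, 277.0 and 101.1 FPKM. It was lower in Dys in the temperature pair (-0.96), differed by 0.23 on average and was not called (adjusted p = 0.787).

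Of 10 loci of Jonah and trypsin digestive proteases, 2 were called higher in Dys (20.0%, beside the same 1.86%). The mean difference was positive at 8 loci and negative at 2. In the unstressed pair 5 of the 10 loci were lower in Dys, and in the temperature and metabolic pairs 1 each. Jon66Ci had 6.78, 12.95 and 7.05 FPKM in Dys, against 0.275, 0.904 and 0.334 FPKM in the libraries labelled Dg (2.69 ± 0.16, adjusted p = 0.00612). Jon99Fii had 245, 169 and 434 FPKM in Dys, against 51.7, 35.9 and 175 FPKM (1.91 ± 0.52, adjusted p = 0.0313). The locus that joins alphaTry with CG12384 and CG13202 had 67.7, 147.8 and 1239.3 FPKM in Dys, against 346.9, 211.8 and 664.7 FPKM. It was lower on average and was not called (-0.65 ± 1.62, adjusted p = 0.555). The abundant loci betaTry (-0.24) and Jon65Aiv (-0.27) were lower in Dys in the unstressed pair and higher in the other pairs. Reads of near-identical family members could be split in other ways, so single Jonah, trypsin and lysozyme loci are uncertain. The list summed to 1838, 2527 and 12535 FPKM in Dys, against 2090, 1606 and 5602 FPKM, so that both mutants held most protease transcript on yeast paste.

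Lysozymes, which digest bacterial cell walls in the gut, gave 0 calls by limma among 6 loci. Of the 6 loci 3 had an unadjusted p under 0.05, beside 27.1% of all loci. The lysozyme median was 0.91, and it was 0.40 without the metabolic pair. LysP went the other way, with 6.06, 4.62 and 3.01 FPKM in Dys, against 11.4, 3.88 and 12.1 FPKM in the libraries labelled Dg (-0.77 ± 0.96, adjusted p = 0.282). LysC had 80.8, 141 and 395 FPKM in Dys, against 37.1, 60.3 and 64.0 FPKM, higher in every Dys library (1.64 ± 0.84, adjusted p = 0.0787). LysD had 30.4, 54.0 and 213 FPKM in Dys, against 15.7, 28.6 and 13.6 FPKM. The 6 loci summed to 152, 237 and 735 FPKM in Dys, against 82.5, 123 and 114 FPKM, and the gap was widest on yeast paste. Obp56a, the gene of an odorant-binding protein and 1 of 8 genes on a further short list, had 6.69, 8.51 and 7.82 FPKM in Dys, against 2.88, 5.52 and 2.27 FPKM, with a difference of 0.99 ± 0.44 that did not pass the test (adjusted p = 0.0734).

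**Figure D4:**
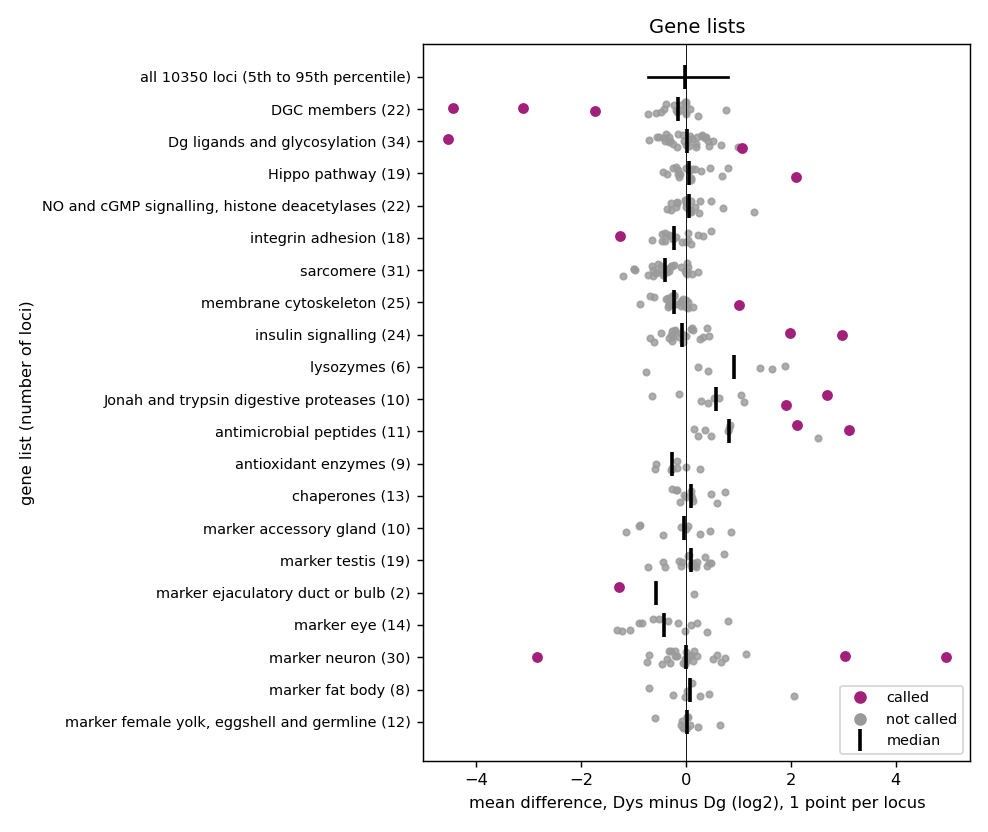
Mean difference, Dys minus Dg, of each locus on 20 gene lists, with called loci in purple and the median of each list as a bar. The top row gives the median of all 10350 loci and the span of the 5th to 95th percentile, from -0.72 to 0.80. Antimicrobial peptides lie to the right of 0, sarcomere loci mostly to the left, and 13 of the 22 DGC loci are loci of Dys.

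Sarcomere genes stood further apart in the metabolic pair than in the other pairs. limma called 0 of the 31 loci, with 7 at an unadjusted p under 0.05, beside 27.1% of all loci. The median sarcomere difference was -0.11 in unstressed flies, -0.07 under temperature stress and -0.96 under metabolic stress. In the metabolic pair 15 of 31 loci were lower in Dys by at least 1, beside 5.29% of all loci, against 1 and 0 of 31 in the unstressed and temperature pairs. This rests on 1 library of each mutant. Mhc, the myosin heavy chain gene, had 198, 227 and 115 FPKM in Dys, against 225, 238 and 444 FPKM in the libraries labelled Dg. The calcium pump gene Ca-P60A, now SERCA, had 399, 210 and 192 FPKM in Dys, against 617, 343 and 936 FPKM. Prm, for paramyosin, had 82.3, 80.7 and 54.3 FPKM in Dys, against 94.8, 82.8 and 180 FPKM, and Tm2, a tropomyosin gene, 193, 177 and 159 FPKM in Dys, against 218, 188 and 412 FPKM. In each of these genes the metabolic library was the highest of the 3 labelled Dg and the lowest of the 3 Dys libraries.

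The giant protein gene sls, on a locus shared with CG42355, had 160, 158 and 155 FPKM in Dys, against 171, 144 and 150 FPKM in the libraries labelled Dg, with no such gap in the metabolic pair. The 31 loci summed to 3696, 3011 and 2754 FPKM in Dys, against 4354, 3178 and 6425 FPKM. The metabolic sums were 4814 FPKM in the library labelled Syn1, 5345 FPKM in that labelled Nos and 6181 FPKM in the control library. The Dys library was thus the lowest of the 5 metabolic libraries, and the library labelled Dg was close to the control.

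**Figure D5:**
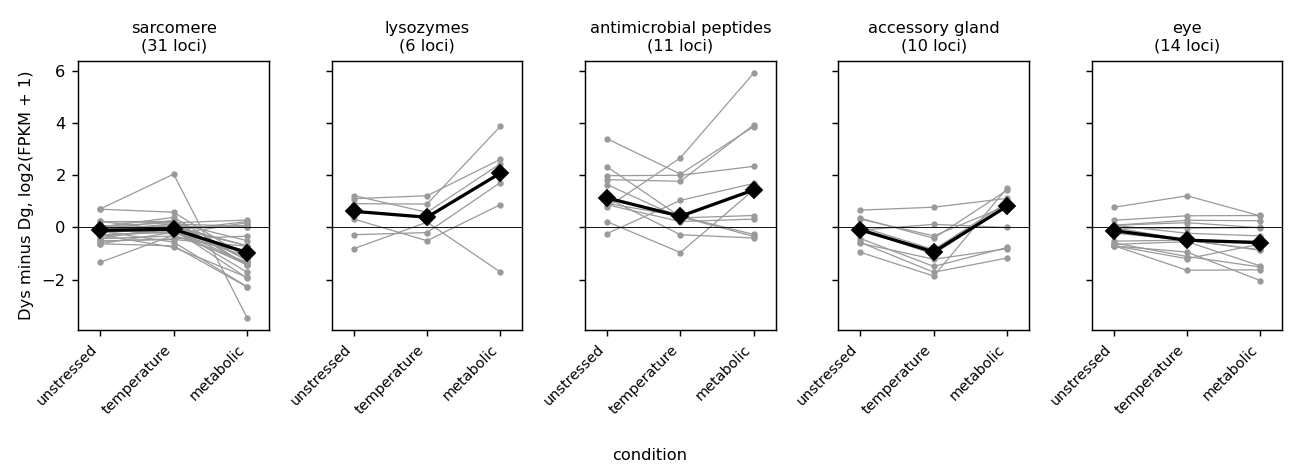
Difference, Dys minus Dg, of log2(FPKM + 1) in the unstressed, temperature and metabolic pair for each locus of 5 gene lists (grey lines), with the median of the list as black diamonds. The sarcomere median is near 0 in the first 2 pairs and -0.96 in the metabolic pair, lysozymes reach 2.08 there, and the accessory gland list changes side between the temperature and metabolic pairs.

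Among the markers of male reproductive tissue and of the eye, limma called 1 locus. It was Peb, for a protein of the ejaculatory bulb and now named Ebp, which was lower, with 1110, 640 and 906 FPKM in Dys, against 2231, 2033 and 2050 FPKM in the libraries labelled Dg (-1.28 ± 0.34, adjusted p = 0.0358). It is among the 5 loci with most transcript in these libraries. The ejaculatory duct and bulb list held 2 loci, and the other, shared by Dup99B and Obp99b, was not lower on average. That locus had 91.6, 137 and 84.5 FPKM in Dys, against 75.7, 189 and 54.6 FPKM (0.14 ± 0.55, adjusted p = 0.731). Sfp60F, a seminal fluid protein gene, had 2585, 1192 and 1326 FPKM in Dys, against 3769, 3254 and 2423 FPKM, with a difference of -0.95 ± 0.46 that did not pass the test (adjusted p = 0.0811). The accessory gland list gave 0 calls by limma in 10 loci, 4 of them at an unadjusted p under 0.05, beside 27.1% of all loci. It summed to 781 to 1482 FPKM in Dys and 975 to 1672 FPKM in the libraries labelled Dg.

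The eye list gave 0 calls by limma in 14 loci, 9 of them at an unadjusted p under 0.05, beside 27.1% of all loci. Its median was -0.43, with 10 negative differences. At 4 loci every Dys value lay below every Dg value and at 2 above, beside 13.3% and 13.2% of all loci. The protein kinase C gene inaC had 34.6, 18.4 and 16.5 FPKM in Dys, against 56.7, 59.3 and 53.0 FPKM in the libraries labelled Dg (-1.32 ± 0.54, adjusted p = 0.0609). The myosin gene ninaC had 33.4, 25.0 and 9.82 FPKM in Dys, against 55.3, 48.9 and 43.4 FPKM, and the scaffold gene inaD 11.4, 8.49 and 6.003 FPKM in Dys, against 17.7, 19.5 and 19.0 FPKM. These 3 genes are among the 4 loci without overlap that were lower, and none was called. The opsin gene Rh2, of the ocelli, was on the other side, with 108, 123 and 109 FPKM in Dys, against 89.4, 89.8 and 79.1 FPKM. The eye loci summed to 286 to 446 FPKM in Dys and 426 to 526 FPKM in the libraries labelled Dg.

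The remaining marker and stress lists held calls only among the neuron loci. By limma 0 of 13 chaperone loci were called (median 0.09), 0 of 9 loci of antioxidant enzymes (median -0.27, with 8 of 9 negative), 0 of 19 testis loci (median 0.10), 0 of 8 fat body loci (median 0.07) and 0 of 12 loci of female yolk, eggshell and germline (median 0.01). The median of antioxidant enzymes was -0.52 in the metabolic pair. At an unadjusted p under 0.05 these lists held 3, 1, 5, 1 and 2 loci in that order, beside 27.1% of all loci. The neuron list summed to 234 to 322 FPKM in Dys and 256 to 331 FPKM in the libraries labelled Dg. Its 3 calls in 30 loci (10.0%, beside 3.25% of all loci) are the Snap25 loci above. The part that differing amounts of reproductive, eye or gut tissue had in any single call was not tested.

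The number of loci apart by at least 1 was 729 (7.04%) in the unstressed pair, 740 (7.15%) in the temperature pair and 1082 (10.5%) in the metabolic pair. In all 3 pairs 274 loci were apart by at least 1 in one direction. In the metabolic pair 534 were higher in Dys (5.16%) and 548 lower (5.29%), in the temperature pair 389 were higher (3.76%) and 351 lower (3.39%), and in the unstressed pair 424 were higher (4.10%) and 305 lower (2.95%). At 29 loci the difference was at least 1 in opposite directions in different conditions.

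Set among the 10 pairs of the 5 genotypes, Dys and Dg were not the nearest. By the count of loci apart by at least 1 on average they came 4th, with 579, after Syn1 against Nos (341), Syn1 against control (407) and Nos against control (475). Dys stood 692 to 870 loci from the other 3 genotypes by this count, and Dg 614 to 678. In single conditions other pairs that hold Dg had smaller counts. Dys against Dg had 729 loci in unstressed flies and 740 under temperature stress, against 720 and 723 for Dg against control, and 1082 under metabolic stress, against 709 for Dg against Nos. The order also depended on settings, as the rank was 5th with a pseudocount of 0.1, 6th with loci of low FPKM left out, and between 4th and 7th with 1 condition left out. The pairs share libraries and these counts carry no test.

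Of the 336 called loci, 278 lay within 1 of each other in the libraries labelled Syn1 and Nos, on the log2 scale. At 96 of these Dys was at least 1 away from the mean of Syn1 and Nos while Dg was nearer, at 79 Dg was away and Dys nearer, and at 91 neither was. At 12 both were away, and at the other 58 called loci Syn1 and Nos were at least 1 apart. CG14692 was one where Dys was away, with averages of 4.34 FPKM in Syn1 and 4.21 FPKM in Nos, and CG9016 one where Dg was away, with averages of 6.48 and 5.50 FPKM. Among 9731 uncalled loci where Syn1 and Nos lay within 1, Dys alone was away at 292 and Dg alone at 179. A called locus has Dys and Dg at least 1 apart, so that its being away from the others is partly built in.

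By chromosome arm, as listed, 20 of 1798 loci were called on X (1.11%), and among the large autosomal arms the share ran from 3.11% on 2L to 4.42% on 3R. On 3R 4.07% were called with the position of Dys left out. Of the small groups listed apart from the arms, 3LHet had 7 of 34 loci called (20.6%) and U 4 of 56 (7.14%). The shares were 2.78% on 3RHet (1 of 36) and 2.63% on 2RHet (1 of 38). limma called 0 loci on 2LHet, XHet and YHet, which hold 2, 7 and 14 loci. On chromosome 4 limma called 0 of 95 loci, with 24 at an unadjusted p under 0.05, beside 27.1% of all loci.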

How the data were processed

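The authors sequenced poly(A) RNA from pooled whole males as 100 bp single-end reads and deposited 1 table of FPKM per library, which also lists the position of a locus and the status of its estimate. The tool and build behind the FPKM are not given in the sources used here. The study's methods describe STAR, BDGP6 and DESeq2 on counts, which were not used here. The position names are of an older style than BDGP6, so positions are as listed.

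Of 10776 named loci, 426 whose status was not OK in some library and 3348 unnamed loci were left out. On log2(FPKM + 1), limma 3.58.1 (R 4.3.3) was fitted to the 6 libraries with condition and genotype as terms (2 residual and 2.25 prior degrees of freedom), Benjamini-Hochberg over 10350 loci. Fold changes on this scale understate the change of low loci. The study's counts and its DESeq2 test could not be run on FPKM. Tested on simulated data (10350 loci, SD of 0.25 each), the fit recovered 99% of 100 loci changed by 1.5 and 100% of 100 changed by 2.5, with 0 false calls. The changed loci were drawn from abundant loci only, and every locus had the same SD and no condition effect. Recovery and false calls at low loci or with unequal spread were therefore not measured. Python 3.11.15, numpy 2.4.6, pandas 2.3.3 and matplotlib 3.10.9 did the rest. RefSeq accessions gave a current name for 115 of 118 named entries.

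Named loci are the targeted genes, the 12 called loci highest and the 12 lowest, called members of 22 gene lists and up to 4 further abundant members of each, the 5 loci with the widest opposite differences, the 5 most abundant loci and the found members of a short list of 8 genes. Other list members named, further loci of named genes, and CG3517 and CG31221, were chosen after their values were seen. The comparison, rule, lists and tests were chosen with earlier results of these data known. The alternatives tried were adding 0.1 in place of 1, keeping the 7140 loci that average 1 FPKM or more, scaling by median ratios, leaving out each pair, all 15 libraries, no condition term, an intensity-dependent prior, limma's treat test, and loci of 1 gene on 1 locus (5335). Sums by name and position (8584), and each condition left out with all genotypes fitted, were added after seeing the data.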

Additional observations from a re-analysis of the deposited data

Results flagged for a closer look

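At several loci the difference between Dys and Dg had opposite signs past 1 in different conditions. With 1 library per genotype and condition these differences between conditions were not tested, and limma called none of the 5 named loci. TpnC4, a troponin C gene of flight muscle on a locus shared with CG30440, had 50.1, 84.4 and 6.11 FPKM in Dys, against 30.2, 19.7 and 76.7 FPKM in the libraries labelled Dg, in the unstressed, temperature and metabolic pairs, and its differences spanned 5.49 on the log2 scale. Lsp1beta, a larval serum storage protein gene, had 34.2, 100.6 and 0.261 FPKM in Dys, against 3.35, 4.47 and 1.67 FPKM, a span of 5.30. The third locus of CG6966 spanned 5.24, with 2.91, 0 and 9.53 FPKM in Dys, against 8.17, 2.60 and 0 FPKM. The locus of the cytochrome P450 genes Cyp4e1 and Cyp4e2 spanned 3.77, with 40.1, 327 and 1134 FPKM in Dys, against 161, 93.6 and 1236 FPKM. The first locus of CG32698, a carbonic anhydrase-related gene now named CARPB, spanned 3.57. The accessory gland list had a median of -0.94 in the temperature pair and 0.82 in the metabolic pair, a span of 1.75.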

How the results depend on the processing

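The count of 336 called loci stayed within 1.5 times under a minimum mean FPKM, median-ratio scaling, all 15 libraries, no condition term, an intensity-dependent prior and treat at an unadjusted P under 0.1 (499 at most). It was 663 with a pseudocount of 0.1, 50 with treat at an adjusted p under 0.05, and 136 of 5335 for loci of 1 gene on 1 locus. With 1 pair left out it ranged from 0 to 55, and with the spread from all genotypes from 263 to 469. The count of loci apart by at least 1 was 579, 1730 with a pseudocount of 0.1, 519 with low loci left out, 576 after scaling, and 566 to 731 with 1 pair left out. The rank of Dys and Dg among genotype pairs was 4, 5 with a pseudocount of 0.1, 6 with low loci left out, and 4 to 7 with 1 pair left out. Of the named loci that were called, none changed sign under any alternative. Of 57 named loci followed, the main test called 39, and all 39 lost their call without the unstressed or the temperature pair. Without the metabolic pair 15 lost it. Under the strictest treat test 16 of the 39 lost their call, and 41 of the 57 kept their side of the threshold. Those 41 include loci that the main test did not call, which kept their side by staying uncalled. Of 132 list medians under alternatives, 19 moved by more than the SD over conditions and 9 changed sign, all at lists near 0 or at a short list with 3 loci found. With 1 library per genotype and condition, no genotype by condition difference could be tested. The test itself is paired by condition, and without that term it called 138 loci higher in Dys and 104 lower.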
